A study of Mus musculus with 8 samples.

Results

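Interferon-induced genes were followed in mouse dorsal root ganglia after ligation of a spinal nerve. They were chosen by name from a list of 40 genes and kept where at least 1 library held 10 or more reads, which all 40 did, out of 53801 genes in the deposited count table. RNA was sequenced from lumbar ganglia, the clusters of sensory neuron cell bodies beside the spinal cord, of C57BL/6J mice labelled male. In the injured group the left L4 spinal nerve was tied tightly and ganglia L3 to L5 of that side were taken 1, 3 or 7 days later, so each injured library also holds 2 neighbouring ganglia whose own nerve was not tied. The uninjured group is the right side of the same operated mice at the same days, and mice of another pool, whose labels say no injury, gave a library of each side. Whether the mice labelled no injury had sham surgery is not stated in their labels. Every library pooled ganglia of 3 mice, giving 3 injured, 3 uninjured and 2 no-injury libraries, and no side was sequenced more than once at any day.

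Interferons are secreted proteins that warn cells of infection or damage. Type I interferons bind a receptor of Ifnar1 and Ifnar2, whose kinases activate a complex that holds Stat2 and Irf9 and binds the interferon-stimulated response element before many antiviral genes. Gamma interferon acts through another receptor, and many of its target genes carry the gamma-activated site. In sensory ganglia neurons, glia, vessel cells and macrophages can all carry interferon receptors, and interferon signalling is known there mainly from infection with neurotropic viruses and from work on pain.

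The element itself can be read before some of the members. RefSeq windows of the 250 bases before the annotated start (GRCm38.p6) were at hand for 30 of the 40 genes, and the core of the element, a pair of GAAA half-sites 2 bases apart (GAAANNGAAA, either strand), lay in 14 of these 30 (46.7%), against 3.46% of 27025 genes with such a window. The core of the gamma-activated site (TTCNNNGAA, which reads the same on both strands) lay in 5 of 30 (16.7%), against 8.13% of genes, and in Bst2 and Igtp it overlaps or ends close to the response element. Stretches around the response element are given on the strand of each gene, with every match in capitals (its reverse complement where it lies on the other strand), for the 4 members with a match among the 12 with the lowest p for injury and for 2 members that did not pass that test, the last 2 chosen after their values were seen. They lie at chr11:58199482-58199555 (plus strand) for Igtp, chr8:71537547-71537642 (minus) for Bst2, chr12:26456523-26456612 (minus) for Rsad2, chr19:34640745-34640853 (plus) for Ifit1, chr4:156200835-156200936 (minus) for Isg15 and chr19:34583333-34583456 (plus) for Ifit3.
Igtp: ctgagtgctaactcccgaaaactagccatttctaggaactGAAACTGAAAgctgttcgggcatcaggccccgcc
Bst2: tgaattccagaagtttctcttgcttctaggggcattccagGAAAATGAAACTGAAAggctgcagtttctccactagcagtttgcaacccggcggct
Rsad2: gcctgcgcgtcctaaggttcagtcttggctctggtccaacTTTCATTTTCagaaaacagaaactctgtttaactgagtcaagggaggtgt
Ifit1: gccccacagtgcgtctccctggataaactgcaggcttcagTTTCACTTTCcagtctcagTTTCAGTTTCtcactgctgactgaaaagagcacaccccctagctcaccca
Isg15: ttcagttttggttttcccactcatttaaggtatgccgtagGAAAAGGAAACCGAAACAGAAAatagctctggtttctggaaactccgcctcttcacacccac
Ifit3: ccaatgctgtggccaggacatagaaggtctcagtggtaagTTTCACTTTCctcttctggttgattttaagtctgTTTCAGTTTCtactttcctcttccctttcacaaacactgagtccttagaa
Isg15 held 3 overlapping matches, Bst2 2 overlapping ones, Ifit1 and Ifit3 2 separate ones, and Igtp and Rsad2 1 each. The other members with a match were Gbp2, Gbp3, Gbp7, Irgm1, Oas1a, Oas3, Stat2 and Trim30a.

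Total counts ran from 20488115 to 21652688 reads per library, and levels are given in CPM, the counts scaled by the total of their library. A gene with 0 reads may still be present at up to 3 reads, about 0.14 CPM. Atf3, a transcription factor switched on in injured neurons, was at 464 to 629 CPM in injured libraries, 110 to 167 CPM in uninjured libraries and about 11 CPM in both no-injury libraries, so the uninjured side of operated mice also stood above the mice labelled no injury. Xist and Kdm5d went against the sex on the labels of the no-injury pool: Xist, expressed in females, was read 4931 and 4129 times in its libraries and never more than 3 times in an operated library, while the Y-linked Kdm5d was read 0 times in them and 280 to 354 times in the operated ones. Any difference from the no-injury pool therefore cannot be told apart from a difference in sex. The uninjured day 1 library stood apart by its neutrophil genes, whose sum of 10 markers reached 507.2 CPM there and at most 277.5 CPM elsewhere.

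As a group the 40 listed genes were higher in the injured ganglia. They were chosen with earlier results of these data known. A longer list of other interferon-induced genes had 7 of 59 that rose, a share close to that of all genes. In a fit of injured state over the 8 libraries, blocked by pool (edgeR quasi-likelihood F test, Benjamini-Hochberg adjusted p under 0.05 over 16244 genes), 19 of the 40 genes rose, 1 fell and 20 did not pass, against 10.1% of all genes tested that rose and 8.02% that fell. The median of the 40 fitted changes was 0.47 on the log2 scale (1.38-fold), against 0.02 for all genes tested, and 38 of the 40 values were above 0. Among the genes that rose, the changes ran from 1.23-fold (Irf9) to 1.99-fold (Ifi44). In 25 of 40 genes the injured side was higher in all 3 pools, against 27.1% of all genes, and in 15 of 40 all 3 injured libraries lay above the other 5, against 11.5%. In whole ganglia more cells of a type and more RNA per cell cannot be told apart.

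Injury was always on the left, and the left side was slightly higher for these genes without injury too. The median log2 ratio of left over right was 0.10 over the 34 genes with 50 or more reads, with 30 of these 34 above 0. Of all 13192 genes with as many reads 48.3% were above 0, with a median of -0.005. With side as a further term, which rests on the single no-injury pool, 0 of the 40 genes and 6 of 16244 genes overall passed (edgeR). At an unadjusted p under 0.05 in that fit, 4 of the 40 were higher and 0 lower. The share of all genes at that unadjusted limit was not counted, so these 4 cannot be set against it. The median of the 40 was 0.27, with 38 of the 40 values above 0. The count of genes that rose was also smaller without the day 3 pool (8), the day 7 pool (12) or the no-injury pool (8). Fewer of all genes rose in these fits too, with 651 of 16434, 475 of 16386 and 763 of 16018, against 1644 of 16244 with all pools.

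**Figure D1:**
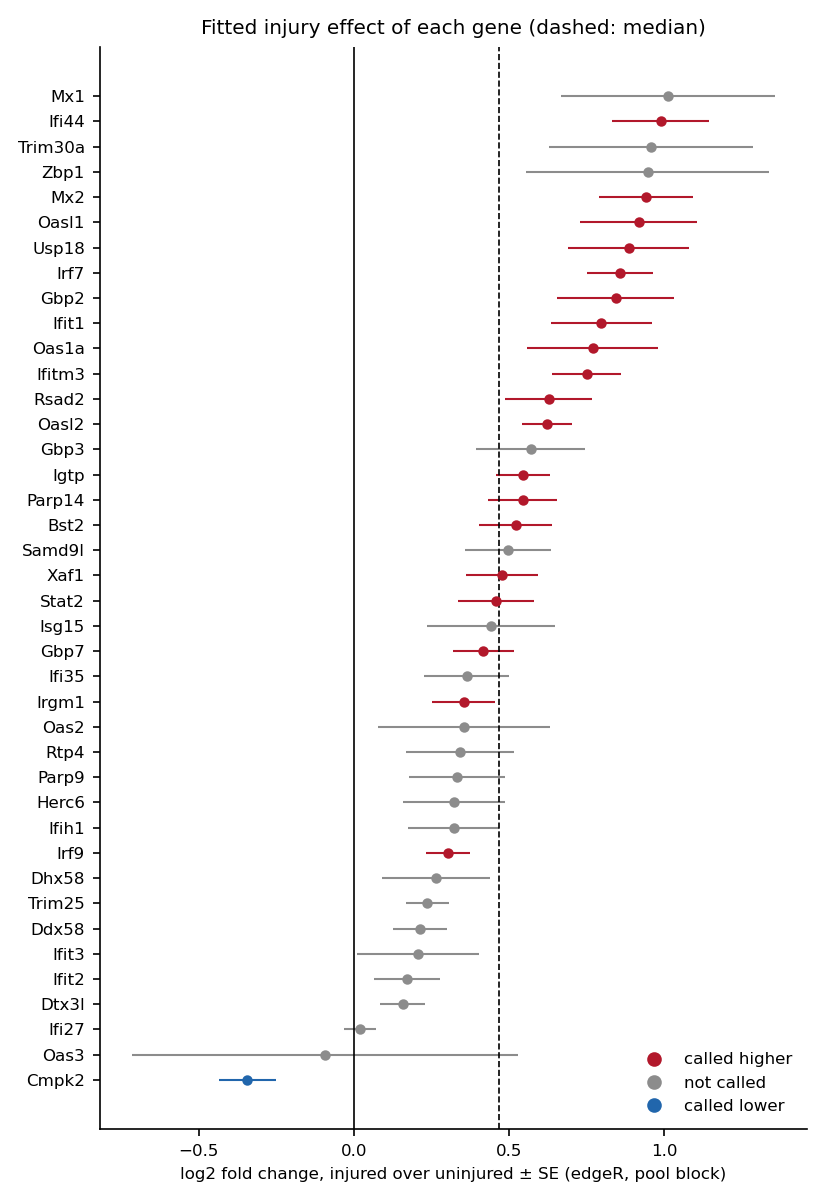
Fitted injury effect of each of the 40 genes, as log2 fold change of injured over uninjured with its SE, ordered by size. Red points passed the test as higher, the blue point (Cmpk2) passed as lower and grey points did not pass. The dashed line is the median of 0.47. Mx1, Trim30a and Zbp1 have values near 1 with wide errors, and only Cmpk2 and Oas3 lie left of 0.

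The transcription factors that carry the interferon signal all rose. Irf7, the factor that amplifies type I interferon production, had 12.1, 13.4 and 12.4 CPM in injured libraries at days 1, 3 and 7, against 6.20, 7.86 and 6.83 CPM in uninjured libraries and 6.56 and 6.00 CPM in no-injury libraries, left and right. The 3 injured values were nearly equal and lay far above the 5 others, and Irf7 had the lowest p of the 40 genes (log2 change 0.86 ± 0.11, SE; adjusted p = 0.00343). Stat2, a subunit of the complex that binds the response element, had 160.5, 97.4 and 102 CPM in injured libraries, against 92.8, 85.2 and 77.5 CPM in uninjured libraries and 80.7 and 86.0 CPM in no-injury libraries. Its high value was at day 1 alone, and its change of 0.46 ± 0.12 passed narrowly (adjusted p = 0.0481) and did not pass without the block (adjusted p = 0.063). Irf9, which gives that complex its DNA binding, rose by 0.30 ± 0.07 (adjusted p = 0.0267), with 22.6 to 25.7 CPM in injured libraries, against 17.8 to 20.3 CPM in uninjured libraries and 18.9 to 20.9 CPM in no-injury libraries.

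Of the ISG15 system, in which a ubiquitin-like protein is attached to other proteins, 1 of 3 genes rose. Usp18, the protease that removes ISG15 and also restrains the type I receptor, had 8.15, 8.84 and 5.87 CPM in injured libraries, against 3.38, 4.26 and 4.61 CPM in uninjured libraries and 3.28 and 2.86 CPM in no-injury libraries (log2 change 0.89 ± 0.19, adjusted p = 0.0217). Isg15 itself had 7.37, 8.13 and 4.83 CPM in injured libraries, against 4.51, 4.63 and 5.55 CPM in uninjured libraries and 4.97 and 4.34 CPM in no-injury libraries. It was above its uninjured partner at days 1 and 3 and below it at day 7, and its fitted value of 0.44 ± 0.21 did not pass (adjusted p = 0.172). Herc6, the ligase that attaches ISG15 in mice, followed the same course and had a value of 0.32 ± 0.16 (adjusted p = 0.203).

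None of the 5 nucleic acid sensors and their helpers passed in edgeR, 0 passed by DESeq2 and Trim25 alone by limma-voom. All fitted values were above 0. In edgeR 3 had an unadjusted p under 0.05, a limit at which the share of all genes was not counted. Ddx58, which encodes the RNA sensor RIG-I, had 54.3, 39.4 and 36.7 CPM in injured libraries, against 40.2, 35.6 and 35.1 CPM in uninjured libraries and 31.1 and 29.3 CPM in no-injury libraries. Only its day 1 value stood clear of the uninjured libraries (0.21 ± 0.09, adjusted p = 0.122). Trim25, a ubiquitin ligase that activates RIG-I, came nearest to the threshold in edgeR, at 0.24 ± 0.07 (adjusted p = 0.0506), and passed with no filter (adjusted p = 0.0458) and in limma-voom (adjusted p = 0.0499). Zbp1, a sensor of Z-form nucleic acids that can start cell death, had 1.42, 3.45 and 1.66 CPM in injured libraries, against 0.798, 0.795 and 1.70 CPM in uninjured libraries and 1.64 and 1.43 CPM in no-injury libraries. Its day 3 ratio was the highest of the 40 genes at any day (log2 1.94), but injured day 7 was no higher than uninjured day 7, and the value of 0.95 ± 0.39 did not pass (adjusted p = 0.131). The RNA sensor Ifih1 and its relative Dhx58 had values of 0.32 and 0.27 (adjusted p = 0.162 and 0.320).

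In the oligoadenylate synthetase family 3 of 5 genes rose. Some of its members, but not all, are enzymes that answer double-stranded RNA with a messenger that switches on RNase L. Oasl2 had 87.6, 85.4 and 81.0 CPM in injured libraries, against 49.3, 61.2 and 54.5 CPM in uninjured libraries and 46.8 and 43.6 CPM in no-injury libraries. Its injured level was nearly the same at the 3 days, and its change of 0.62 ± 0.08 had the second lowest p (adjusted p = 0.00410). Oasl1, which in mice holds back translation of Irf7, had 5.12, 4.26 and 4.92 CPM in injured libraries, against 2.54, 2.85 and 2.17 CPM in uninjured libraries and 1.83 and 1.85 CPM in no-injury libraries (0.92 ± 0.19, adjusted p = 0.0176). Oas1a rose by 0.77 ± 0.21 (adjusted p = 0.0422), on at most 71 reads in a library, and 57.6% of its 50-base words also occur elsewhere, most in Oas1g, so its reads may be shared.

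Oas2 and Oas3 were near the limit of these data. Oas2 had 0.683, 3.36 and 2.32 CPM in injured libraries, against 0.892, 1.73 and 1.93 CPM in uninjured libraries and 1.74 and 1.57 CPM in no-injury libraries (0.35 ± 0.28, adjusted p = 0.409). Oas3 had 0.293, 1.32 and 0.473 CPM in injured libraries, against 1.13, 0.468 and 0.518 CPM in uninjured libraries and 0.723 and 0.370 CPM in no-injury libraries, which is 6 to 28 reads a library. The groups overlapped fully for Oas3, and its value of -0.09 ± 0.62 turned to 0.77 without the day 1 pool.

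The IFIT proteins bind foreign RNA, and 1 of the 3 genes rose. Ifit1 had 85.7, 58.5 and 35.3 CPM in injured libraries, against 38.6, 30.7 and 28.9 CPM in uninjured libraries and 21.9 and 20.8 CPM in no-injury libraries. It was 2.27-fold higher on the injured side at day 1, 1.83-fold at day 3 and 1.21-fold at day 7, and the injured day 7 value lay below the uninjured day 1 value (0.80 ± 0.16, adjusted p = 0.0263). Ifit2 was 1.13-fold higher (0.17 ± 0.11, adjusted p = 0.292). Ifit3 had 9.47, 10.9 and 9.18 CPM in injured libraries, against 6.48, 7.53 and 12.3 CPM in uninjured libraries and 12.5 and 12.3 CPM in no-injury libraries. All its injured values were below the no-injury libraries, so that the fitted value was 0.21 ± 0.20 with the block (adjusted p = 0.506) and -0.06 without it. Reads of Ifit3 may be shared as well, since 51.2% of its 50-base words also occur elsewhere, most in Ifit3b, while Gbp7, Herc6, Igtp, Rtp4 and Ifitm3 share 10 to 12.7% of theirs.

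Other antiviral effectors held 4 of the 19 genes that rose and the 1 that fell. Ifitm3, a membrane protein that blocks virus entry, had 41.2, 46.6 and 33.0 CPM in injured libraries, against 25.5, 21.6 and 24.0 CPM in uninjured libraries and 24.5 and 22.8 CPM in no-injury libraries (0.75 ± 0.11, adjusted p = 0.00717). Mx2, a dynamin-like GTPase, had 6.30, 5.49 and 5.40 CPM in injured libraries, against 3.52, 2.53 and 2.92 CPM in uninjured libraries and 2.51 and 2.35 CPM in no-injury libraries (0.94 ± 0.15, adjusted p = 0.00810). In both genes the injured libraries lay above all others. Bst2, which tethers budding viruses to the cell, had 12.4, 17.2 and 14.3 CPM in injured libraries, against 9.25, 10.1 and 11.1 CPM in uninjured libraries and 13.3 and 10.6 CPM in no-injury libraries. Its injured day 1 value lay below the left no-injury library, although its change passed (0.52 ± 0.12, adjusted p = 0.0237).

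Mx1, the close relative of Mx2, whose protein is defective in C57BL/6 mice, had 3.47, 3.50 and 2.94 CPM in injured libraries, against 1.69, 0.982 and 2.40 CPM in uninjured libraries and 1.30 and 0.647 CPM in no-injury libraries. All 3 injured values were above the 5 others and its fitted value was the highest of the 40 genes, at 1.01 ± 0.34 (2.02-fold), but it missed the threshold (adjusted p = 0.0791). It passed without the block (1.23, adjusted p = 0.0389), with no filter (1.00, adjusted p = 0.037) and against the no-injury libraries alone (1.76, adjusted p = 0.0387), and its left library without injury was 1.86-fold above its right one. Samd9l, at 1.41-fold, missed the threshold in the main edgeR test (adjusted p = 0.0510) and passed in DESeq2 (adjusted p = 0.0294), with DESeq2 size factors (adjusted p = 0.0483) and with no filter (adjusted p = 0.0307).

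Rsad2 and Cmpk2 are neighbours on chromosome 12, at 26442746 to 26456452 on the minus strand and 26469204 to 26479837 on the plus strand (GENCODE M21, GRCm38), with starts 12752 bases apart. Rsad2 encodes viperin, which turns the nucleotide CTP into a chain terminator, and Cmpk2 a mitochondrial kinase that supplies such nucleotides. Rsad2 had 30.5, 24.9 and 15.8 CPM in injured libraries, against 19.3, 12.3 and 13.7 CPM in uninjured libraries and 10.8 and 9.70 CPM in no-injury libraries, and rose by 0.63 ± 0.14 (adjusted p = 0.0249). Cmpk2 had 32.3, 28.4 and 25.8 CPM in injured libraries, against 34.6, 37.4 and 37.0 CPM in uninjured libraries and 35.6 and 36.7 CPM in no-injury libraries. Its injured libraries lay below all 5 others, and it was the only one of the 40 genes to fall (-0.34 ± 0.09, adjusted p = 0.0384). The call of Cmpk2 was lost without the day 3 pool (adjusted p = 0.156), the day 7 pool (adjusted p = 0.203) or the no-injury pool (adjusted p = 0.0889).

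**Figure D2:**
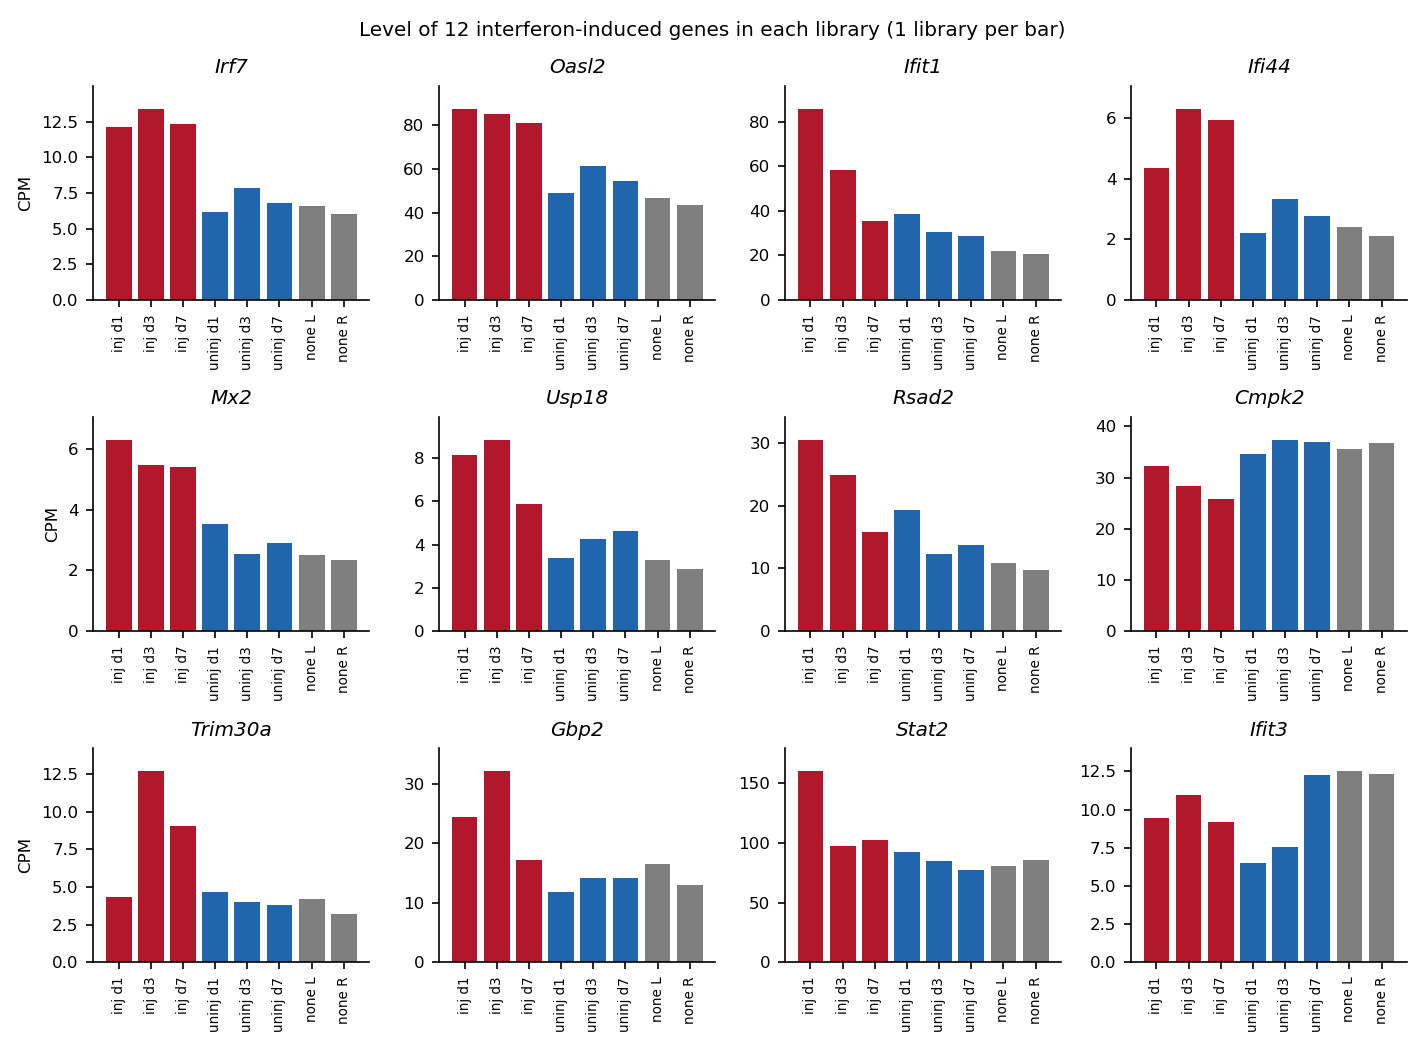
Level in CPM of 12 interferon-induced genes in each library, 1 bar a library: injured side at days 1, 3 and 7 (red), uninjured side at the same days (blue) and left and right of the no-injury pool (grey). Irf7, Oasl2, Ifi44 and Mx2 stay high on the injured side at day 7, while Ifit1 drops to 35.3 CPM at day 7, against 28.9 CPM in the uninjured library of that day. Cmpk2 is the only one of the 12 whose injured bars are all below the others.

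The guanylate-binding and immunity-related GTPases, which attack vacuoles that hold microbes and answer gamma interferon strongly, rose in 4 of 5 genes. Igtp had 50.6, 39.7 and 31.8 CPM in injured libraries, against 30.4, 28.5 and 23.7 CPM in uninjured libraries and 27.5 and 24.3 CPM in no-injury libraries (0.54 ± 0.09, adjusted p = 0.00810). The injured libraries were above all others for Igtp, at day 7 by a small margin over uninjured day 1. Gbp2 had 24.5, 32.1 and 17.2 CPM in injured libraries, against 11.8, 14.2 and 14.1 CPM in uninjured libraries and 16.5 and 13.0 CPM in no-injury libraries (0.84 ± 0.19, adjusted p = 0.0316). Gbp7 and Irgm1 rose by 0.42 and 0.35, and Gbp3, at 0.57 ± 0.18, did not pass in edgeR (adjusted p = 0.0678) and did in DESeq2 (adjusted p = 0.0478).

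Of the ADP-ribosyltransferase group 1 of 3 rose. Parp14 had 25.4, 36.4 and 24.2 CPM in injured libraries, against 18.0, 20.3 and 19.7 CPM in uninjured libraries and 23.2 and 19.3 CPM in no-injury libraries (0.54 ± 0.11, adjusted p = 0.0185). Parp9 and its partner Dtx3l, an overlapping pair on opposite strands that share 458 exon bases, had values of 0.33 and 0.16 (adjusted p = 0.169 and 0.164). Dtx3l had 23.6, 24.0 and 21.1 CPM in injured libraries, against 20.2, 20.7 and 20.4 CPM in uninjured libraries and 18.2 and 18.8 CPM in no-injury libraries. Its injured libraries were above all others by a small margin, a case of separate groups without a call.

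Among the 6 remaining genes 2 rose. Ifi44 had 4.34, 6.29 and 5.92 CPM in injured libraries, against 2.21, 3.32 and 2.78 CPM in uninjured libraries and 2.41 and 2.12 CPM in no-injury libraries, the largest rise among the genes that passed (0.99 ± 0.16, 1.99-fold, adjusted p = 0.00766). Xaf1, named for binding an inhibitor of cell death, rose by 0.48 ± 0.12 (adjusted p = 0.0291). Trim30a, a ubiquitin ligase family gene, had 4.34, 12.7 and 9.09 CPM in injured libraries, against 4.70, 4.02 and 3.81 CPM in uninjured libraries and 4.19 and 3.19 CPM in no-injury libraries. It was not higher at day 1 and 2.99-fold and 2.33-fold higher at days 3 and 7. Its fitted value of 0.96 ± 0.33 did not pass in edgeR (adjusted p = 0.0962), and it passed in DESeq2 (adjusted p = 0.0397), in edgeR without the block (adjusted p = 0.027) and without the day 1 pool (1.44, adjusted p = 0.000385). Ifi35 and Rtp4 had values of 0.36 and 0.34 and did not pass.

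Ifi27 was flat and by far the most abundant. Per length of transcript, averaged over the 8 libraries, it stood at 89.7 RPKM (CPM per kilobase of exon), followed by Ifitm3 at 44.1 and Stat2 at 16.5, while Oas3 was lowest at 0.0936. Ifi27 had 118, 134 and 142 CPM in injured libraries, against 122, 131 and 133 CPM in uninjured libraries and 138.0 and 136 CPM in no-injury libraries. These values interleave, and the fitted value was 0.02 ± 0.05 (adjusted p = 0.816).

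With 1 library a side at each day, single days were described by the ratio of sides within a pool, with no test. At day 1, 6 of the 36 genes with 50 or more reads were at least 2-fold higher on the injured side, against 0.911% of all genes with as many reads. These were Usp18, Ifit1, Gbp2, Gbp3, Oasl1 and Mx1. At day 3, 6 of 39 were at least 2-fold higher, against 6.16% of genes, namely Zbp1, Mx1, Trim30a, Gbp2, Ifitm3 and Mx2. At day 7, 3 of 37 were, against 3.07%, namely Trim30a, Oasl1 and Ifi44. Left over right without injury, 0 of 34 were, against 0.402%. None of the 40 genes with 50 reads was 2-fold lower in any pool, where 1.51%, 1.22%, 0.777% and 0.493% of genes were at days 1, 3, 7 and without injury. Without scaling beyond library size the days 1, 3 and 7 had 3, 8 and 3 of these genes past 2-fold, against 0.761%, 6.74% and 3.14% of all genes.

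The median log2 ratio of the genes with 50 or more reads was 0.61 at day 1, 0.51 at day 3 and 0.20 at day 7, with the median of all genes within 0.02 of 0 at each day. Above 0 were 33 of 36, 37 of 39 and 27 of 37 genes. The highest of the 3 ratios fell at day 1 in 18 of 40 genes (40.1% of all genes tested), at day 3 in 18 (31.8%) and at day 7 in 4 (28.1%). The 4 with their highest ratio at day 7 were Ifi44, Oasl1, Irf9 and Ifi27.

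Summed over the 40 genes, the level was 1102, 1041 and 879.5 CPM in injured libraries at days 1, 3 and 7, against 763.5, 760.1 and 764.4 CPM in uninjured libraries and 763.0 and 720.6 CPM in no-injury libraries. The ratio of sides was 1.44 at day 1 (95% interval 1.41 to 1.47, exact binomial, counting error only), 1.37 at day 3 (1.34 to 1.40) and 1.15 at day 7 (1.13 to 1.18), while left over right without injury was 1.06 (1.04 to 1.08). The 3 uninjured sums were nearly equal, and the injured sums were lower at the later days. By the median CPM of the 40 genes in place of the sum, both sides moved: it was 15.4, 17.4 and 13.7 CPM in injured libraries at days 1, 3 and 7, against 10.4, 10.7 and 11.9 CPM in uninjured libraries. The ratio of these medians was 1.48 at day 1, 1.63 at day 3 and 1.14 at day 7.

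**Figure D3:**
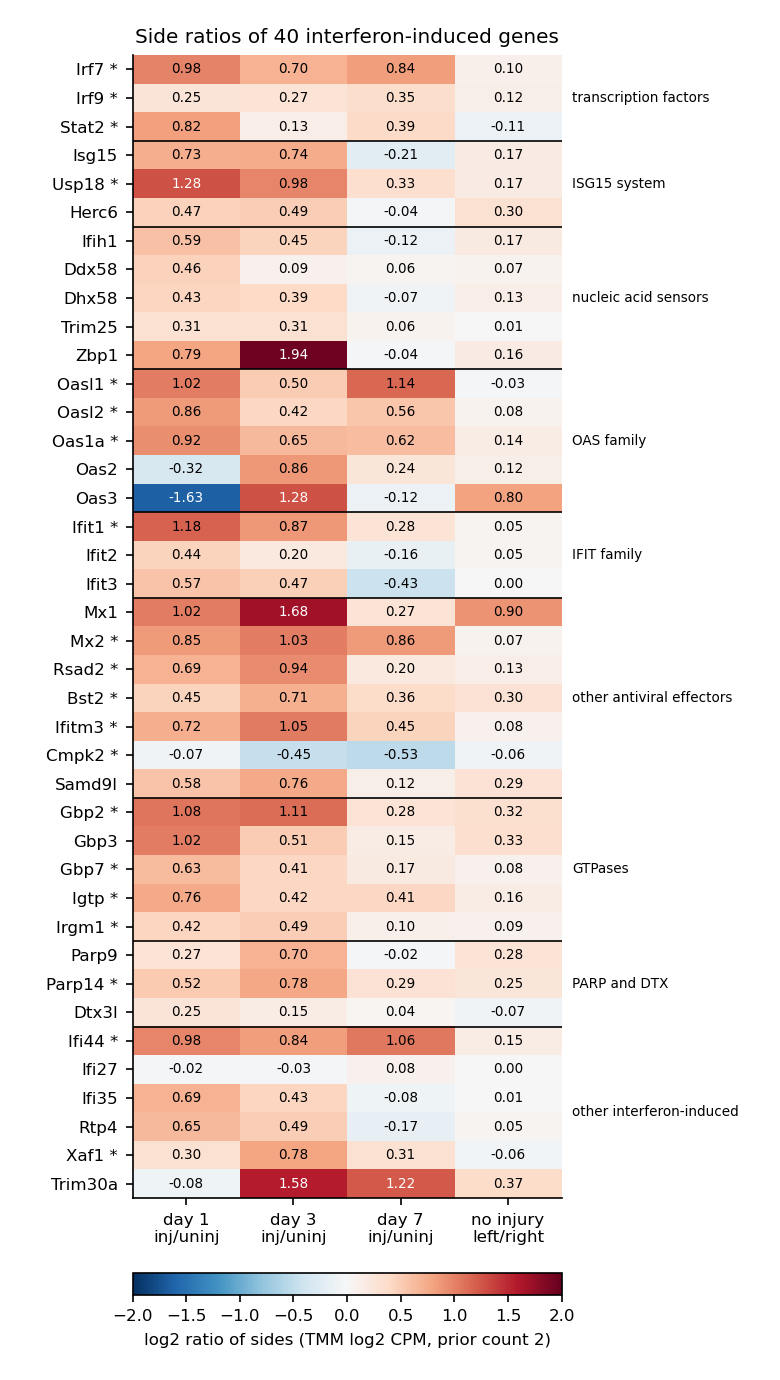
Log2 ratio of sides within a pool for each of the 40 genes, by role: injured over uninjured at days 1, 3 and 7, and left over right without injury. Red is higher and blue is lower on the injured or left side, and an asterisk marks genes that passed the test of injury. Day 7 is paler than days 1 and 3 for most genes, with Oasl1, Trim30a, Ifi44, Mx2 and Irf7 still between 0.84 and 1.22.

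Whether the side difference changed with time was tested by the trend of the injured effect over log2 days in the same libraries. No gene of the 40 passed, and 0% of 16244 genes overall passed as higher and 0% as lower (edgeR; 37 genes higher and 12 lower by DESeq2, 0 of them among the 40). At an unadjusted p under 0.05, 11 of the 40 genes trended downward and 1 upward, against 703 and 596 of all genes. The trend was below 0 in 31 of 40 genes, with a median of -0.14 per doubling of days, against -0.01 for all genes. Ifit1 had the lowest p (-0.31 ± 0.06, unadjusted p = 0.00107, adjusted p = 0.210), followed by Ifi35 (-0.27 ± 0.07, adjusted p = 0.333) and Ifit2 (-0.21 ± 0.05, adjusted p = 0.348). The 1 gene upward was Trim30a (0.50 ± 0.20, adjusted p = 0.622).

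Calls in the trend changed when the day 3 or day 7 pool was left out. The trend then rested on 1 operated pool against 1 other, so only the values of the genes concerned are given. Without the day 3 pool Ifit1, Ifit2, Ifit3 and Ifi35 had trends of -0.32, -0.21, -0.35 and -0.27. Without the day 7 pool Stat2 had -0.42, Trim30a 1.07 and Oas3, at 6 to 28 reads a library, 2.11. Of all 40 genes, 20 had an injured day 7 library above all 5 uninjured and no-injury libraries, against 30 at day 1 and 35 at day 3. The share of all genes was counted at none of these days, so these counts cannot be read as a course particular to the 40. Among the 19 genes that rose with injury, 15 had such an injured day 7 library, all but Ifit1, Rsad2, Gbp7 and Irgm1. These 19 were called from the same libraries, so their count is no separate test. In Ifit1, Rsad2, Usp18 and Gbp2 the day 7 side ratio was 1.15 to 1.26, against 1.61 to 2.42 at day 1. Irf7, Oasl1, Ifi44 and Mx2 had day 7 side ratios of 1.79, 2.21, 2.08 and 1.81.

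The uninjured side of the operated mice was compared with the no-injury pool, to ask whether these genes also moved away from the ligated nerve. None of the 40 passed (edgeR; 0 by DESeq2), against 0.125% of 16747 genes that were higher and 0.155% that were lower, and 2 were higher and 2 lower at an unadjusted p under 0.05. The share of all genes at that unadjusted p was not counted. The median of the 40 values was 0.09, against 0.00 for all genes, with 27 of 40 values above 0. Ifit1 was higher by 0.63 ± 0.17 in uninjured libraries (unadjusted p = 0.00959, adjusted p = 0.343), each of them, at 28.9 to 38.6 CPM, lying above both no-injury libraries. Ddx58 had a value of 0.30 ± 0.11, and Gbp3 and Samd9l of -0.56 ± 0.18 and -0.44 ± 0.15 (adjusted p = 0.445, 0.402 and 0.412). Without the day 1 pool, whose uninjured library stood apart, Ifit1, Oasl2 and Samd9l had values of 0.49, 0.37 and -0.39. These fits set the uninjured libraries against 1 summed no-injury sample.

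The interferons themselves were not seen. Of 21 interferon ligand genes, among them Ifnb1 and Ifng, 20 had 0 reads in all 8 libraries and Ifnz had 1 read in 1 library, so that any level was not detectable at this depth. Of the 6 receptor genes, Ifnar2 rose (0.38 ± 0.10, adjusted p = 0.0356), at 16.6, 21.1 and 23.1 CPM in injured libraries, against 14.2 to 16.1 CPM in uninjured libraries and 16.9 CPM in both no-injury libraries. Ifnar1 had a value of 0.17 ± 0.06 and did not pass (adjusted p = 0.0707).

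Genes that relay the interferon signal were taken next. Of 12 signal transducers and interferon regulatory factors 2 rose and 0 fell, a share close to the 10.1% of all genes that rose. They were the kinase Jak2 (0.41 ± 0.06, adjusted p = 0.00667) and Stat3 (0.27 ± 0.08, adjusted p = 0.0432), which serves mainly the interleukin 6 family. Irf1, induced by gamma interferon, had a value of 0.18 ± 0.08 (adjusted p = 0.134), and the interferon-induced chemokine Cxcl10 of 0.22 ± 0.22 (adjusted p = 0.517).

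Negative regulators rose in 5 of 9 genes tested, where 10.1% of all genes rose, with 0 lower and a median of 0.33. Socs3, an inhibitor of Jak kinases, had 50.1, 45.8 and 32.0 CPM in injured libraries, against 22.4, 16.4 and 14.4 CPM in uninjured libraries and 11.5 and 11.8 CPM in no-injury libraries (1.26 ± 0.08, adjusted p = 0.000500). Socs1, which restrains interferon receptors most directly, was 2.00-fold higher (1.00 ± 0.21, adjusted p = 0.0180), at 2.79 CPM or more in injured libraries, against 1.64 CPM or less in uninjured libraries and 0.964 and 1.15 CPM in no-injury libraries. The phosphatase gene Ptpn1 rose by 0.74 ± 0.07 (adjusted p = 0.00143). Of 17 genes that sense nucleic acids or relay that signal, 3 rose and 0 fell, where 10.1% of all genes rose: Tmem173, the adaptor of the DNA sensing pathway (1.04 ± 0.08, adjusted p = 0.000959), Myd88 and Irak4.

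Markers of other cells were summed in each library. The summed level of 15 macrophage markers was 74.5, 334.4 and 309.6 CPM in injured libraries at days 1, 3 and 7, against 79.5, 90.8 and 133.0 CPM in uninjured libraries and 142.0 and 111.5 CPM in no-injury libraries, with 0 markers at 0 reads in any library. Of the 15 genes 4 rose, where 10.1% of all genes rose. At day 1 the macrophage sum was not higher on the injured side, and the sum of the interferon-induced genes was 1.44-fold higher. At days 3 and 7 both sums were higher on the injured side. The part of macrophages in the ratios of the interferon-induced genes was not tested at any day. Of 8 endothelial markers 1 rose, Kdr, a share close to the 10.1% of all genes, and their sum was 147.2, 203.3 and 126.2 CPM in injured libraries, against 123.5, 109.6 and 122.0 CPM in uninjured libraries and 140.2 and 133.6 CPM in no-injury libraries. The sum of 6 Schwann cell markers, of which Sox10 rose, was 4109, 7068 and 7403 CPM in injured libraries, against 4010, 4215 and 6900 CPM in uninjured libraries and 5038 and 6960 CPM in no-injury libraries. For 6 satellite glia markers, of which Glul rose, it was 786.1, 1144 and 1006 CPM in injured libraries, against 753.0, 893.0 and 820.4 CPM in uninjured libraries and 786.9 and 729.5 CPM in no-injury libraries. In each of these 2 lists 1 of 6 genes rose, where 10.1% of all genes rose. Both sums were higher on the injured side at every day, and their part in the ratios of the interferon-induced genes was not tested.

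Blood cell markers went the other way at day 1. The sum of 10 neutrophil markers was 23.5, 95.5 and 83.7 CPM in injured libraries, against 507.2, 51.6 and 83.2 CPM in uninjured libraries and 277.5 and 74.7 CPM in no-injury libraries. The uninjured day 1 library was the highest in neutrophil genes. Its sum of interferon-induced genes was 763.5 CPM, with 760.1 and 764.4 CPM in the other uninjured libraries. The part of neutrophils in these sums was not tested. Lymphocyte markers summed to 2.36 to 4.12 CPM in injured libraries, against 1.73 to 9.96 CPM in uninjured libraries and 3.93 and 5.64 CPM in no-injury libraries, with 0 to 3 of 11 genes at 0 reads. Plasmacytoid dendritic cell markers, of the cell type best known for making type I interferon, summed to 0.830 to 2.04 CPM in injured libraries, against 0.608 to 2.77 CPM in uninjured libraries and 3.81 and 6.33 CPM in no-injury libraries, with 0 to 2 of 5 genes at 0 reads. Of 10 sensory neuron markers, whose presence fits the labelled tissue, 6 fell with injury, where 8.02% of all genes fell. Their sum was 8436 to 9054 CPM in injured libraries, against 9220 to 9610 CPM in uninjured libraries and 9108 and 9259 CPM in no-injury libraries.

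**Figure D4:**
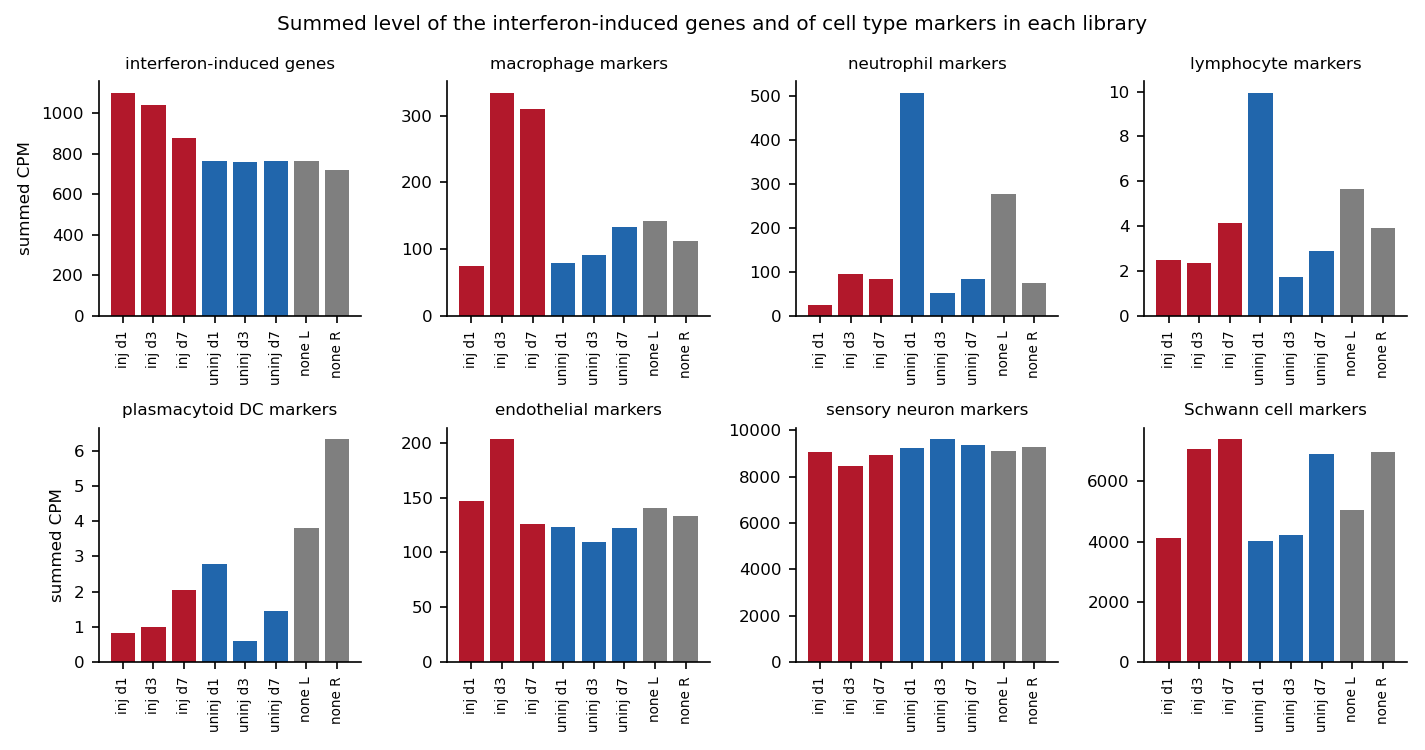
Summed CPM of the 40 interferon-induced genes and of 7 marker lists in each library (red injured, blue uninjured, grey no injury; each panel has its own axis from 0). The interferon-induced sum is highest at injured day 1 (1102 CPM), where macrophage markers sum to 74.5 CPM, against 334.4 CPM at injured day 3, and the neutrophil sum is highest in the uninjured day 1 library at 507.2 CPM.

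Set beside the response element, 9 of the 16 genes that rose and have a window held its core, 5 of the 13 that did not pass and 0 of 1 that fell. Ifit1 and Ifit3, with 2 matches each in the windows shown above, had fitted values of 0.80 and 0.21, and Isg15, with 3 overlapping matches, had 0.44 and did not pass. Igtp and Rsad2, with 1 match each, had 0.54 and 0.63, and Bst2 0.52.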

How the data were processed

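Raw counts of reads for 53801 Ensembl genes were used as deposited, in 8 columns of 1 library each. The submitters' processing notes name STAR 2.5.4a, cutadapt 1.16, featureCounts 1.6.3, DESeq2 and the build GRCm38, without the role of any tool. Strand setting, treatment of multi-mapping reads and annotation release: not given in the sources used here. Reads of overlapping or near-identical genes therefore cannot be assigned with certainty.

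Gene names and positions came from GENCODE release M21, which matched 53706 IDs, and windows before gene starts from RefSeq (GRCm38.p6). Tests used edgeR 4.0.16 in R 4.3.3: scaling by TMM, genes kept by filterByExpr (minimum count 10), robust quasi-likelihood F test, Benjamini-Hochberg adjustment over all genes tested. The injury effect was fitted over 8 libraries with the pool as block (3 residual degrees of freedom). For the trend a term of injured state by log2 day, centred, was added, and the uninjured libraries were set against the summed no-injury libraries (2 residual degrees of freedom each). An SE is the log2 change over the square root of F. In the injury fit the p-values measure the spread of the side difference over operated pools of 3 mice, with differences in time included. The left and right difference within the no-injury pool enters this error too. The trend fit uses the spread left around the trend, and the comparison of uninjured libraries the spread between the operated pools. Ratios of sides are differences of log2 CPM after TMM (prior count 2), without a test. The scripts were tested on simulated data first.

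The sides of a pool are paired because they come from the same mice, per the series' design. Their deviations from the state means correlated by 0.249, -0.0618 and 0.356 in the pools of days 1, 3 and 7. Members and lists were chosen with earlier results of these data known. Values per library are given for the 12 members with the lowest p, the 3 highest and 3 lowest side ratios of each pool, members fitted opposite to the median and the 3 of highest level per length. Other lists give at most 4 genes each, by lowest p, besides a few fixed pathway genes; 1 of these is not reported here. Other genes with values per library were chosen after their values were seen. Alternatives with limma 3.58.1 and DESeq2 1.42.0, other scalings and filters and left-out pools were run.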

Additional observations from a re-analysis of the deposited data

How the results depend on the processing

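Without the replicate block 18 genes rose in place of 19, and 16 of the 19 were among them. Other scalings, no filter, DESeq2 and limma-voom gave 18 to 20. Of the 19 genes, 16 rose in DESeq2 and 15 with no filter, against 18 without scaling. All 19 rose with DESeq2 size factors and with limma-voom. In DESeq2 Irf9, Oas1a and Irgm1 did not pass (adjusted p = 0.102, 0.184 and 0.141). With no filter in edgeR, Ifit1, Stat2, Gbp2 and Oas1a did not pass (adjusted p = 0.113, 0.112, 0.0836 and 0.0566). Larger shifts came from 3 choices. With side as a further term 0 rose and 0 fell, where 6 and 0 of 16244 genes overall did. Against the no-injury libraries alone 8 rose and 0 fell, where 703 and 442 of 16376 genes overall did. Leaving out 1 pool gave 8 to 16 risen and 0 to 1 fallen, where 475 to 2382 of all genes rose. The median change was 0.27 to 0.59 under all of these. The cause of these shifts was not tested. The genes Ifit3, Ifi27 and Oas3 changed sign. Ifit3 turned to -0.055 without the block and -0.33 against no injury alone. Ifi27 turned to -0.012 and -0.056 in these fits, with -0.019 to 0.037 when 1 pool was left out. Oas3 turned to 0.115 and 0.355, with -1.022 to 0.765 when 1 pool was left out. Trend calls ran from 0 to 4 without 1 pool. In the uninjured side against no injury, calls changed with the filter and with the pool left out, on 1 summed no-injury sample. With no filter Ifit1, Rsad2, Gbp3 and Samd9l had values of 0.60, 0.55, -0.58 and -0.46. With left and right as 2 samples Ifit1 passed, where 188 genes overall were higher and 184 lower.

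Past 2-fold were 3 genes at day 1 and 8 at day 3 without scaling, against 0.761% and 6.74% of all genes. Past 1.5-fold were 19, 19 and 6 at days 1, 3 and 7, against 3.82%, 12.6% and 7.15% of all genes. The summed ratio was 1.47 at day 1 and 1.31 at day 3 with TMM scaling; by the median CPM it was 1.48, 1.63 and, left over right, 1.13. Depth limits Oas3, Oas2, Zbp1 and Oas1a, which had at most 73 reads in a library. Single days have no replicate, and the left side, the injured state and, for no injury, the sex of the pool cannot be told apart.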

Other observations

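Beyond the 40 genes, a longer list of other interferon-induced genes gave 7 of 59 tested that rose and 0 that fell (edgeR, pool block), a share close to the 10.1% of all genes that rose, where 8.02% fell. The median log2 change of the list was 0.27, against 0.02 for all genes tested. Apol9a, an apolipoprotein L relative, was 3.51-fold higher (1.81 ± 0.33, adjusted p = 0.0133), at 0.635, 2.22 and 2.37 CPM in injured libraries, against 0.282, 0.655 and 0.471 CPM in uninjured libraries and 0.289 and 0.462 CPM in no-injury libraries. It was higher at every day, on few reads. Ifi204, a DNA-binding family gene, and Oas1b were 2.18-fold and 2.05-fold higher (adjusted p = 0.0186 and 0.0199), and Shisa5 rose by 0.23 ± 0.06 (adjusted p = 0.0312).

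Class I antigen presentation, which interferons raise in many cells, gave 5 of 13 genes that rose, where 10.1% of all genes rose, and 0 that fell, with a median of 0.32. Nlrc5, the transactivator of class I genes, had 11.1, 9.17 and 6.86 CPM in injured libraries, against 6.11, 4.77 and 5.41 CPM in uninjured libraries and 5.25 and 4.71 CPM in no-injury libraries (0.72 ± 0.15, adjusted p = 0.0183). H2-D1, a class I heavy chain, rose by 0.27 ± 0.07 (adjusted p = 0.0285), and Psmb8, a subunit of the immunoproteasome, by 0.34 ± 0.09 (adjusted p = 0.0412). B2m, the class I light chain, had 155, 262 and 247 CPM in injured libraries, against 146, 145 and 170.2 CPM in uninjured libraries and 194 and 179 CPM in no-injury libraries (0.49 ± 0.13, adjusted p = 0.0430). Its injured level at day 1 lay below both no-injury libraries. With side as a further term only 6 genes of the whole table passed.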
